A study of Mus musculus with 18 samples.

Results

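A set of 7 genes of the aryl hydrocarbon receptor (AHR) pathway was followed across cultured mouse cells, labelled as endothelial, with and without flow. They are the receptor Ahr, its dimer partner Arnt, the target oxidases Cyp1a1, Cyp1b1 and Aldh3a1, and the repressors Ahrr and Tiparp. They were chosen by symbol, with their values in these libraries already known, and all 7 are among the 21647 genes of the deposited table. Their values are therefore a description and carry no test. The cells were embryonic aortic endothelial cells, as the labels call them, either homozygous for orpk (Tg737orpk/orpk, an insertion mutation in Ift88, a gene needed to build the primary cilium) or wild type (WT). Cells of each genotype were serum starved for 24 h and then kept static or exposed to laminar shear of 2 or 30 dyn/cm² for 48 h in slides coated with gelatin. Each of the 6 groups held 3 libraries of poly(A) RNA, 18 in all. How many animals or isolations gave the cells is not given in the sources used here, so the genotype and the cell isolate cannot be told apart.

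AHR is a transcription factor that waits in the cytoplasm with HSP90 and other chaperones until a small molecule binds it. It then enters the nucleus, pairs with ARNT and binds short DNA elements beside genes of oxidative metabolism, of which Cyp1a1 and Cyp1b1 are the best known. AHRR competes for ARNT and TIPARP modifies AHR with ADP-ribose, and both are themselves target genes, so the response restrains itself. In cultured human endothelial cells, laminar flow is known to raise CYP1A1 and CYP1B1.

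The start-site regions are shown because the element bound by AHR and ARNT has a fixed core, GCGTG, which can be looked for directly. RefSeq sequences (GRCm38.p6) from 250 bases before the start to 50 after it were available for 5 of the 7 genes, and none was used for Ahr and Aldh3a1. They are written 5′ to 3′ on the strand of the gene, and capitals mark GCGTG or its reverse complement CACGC.
Cyp1a1, chr9:57697363-57697662, plus strand: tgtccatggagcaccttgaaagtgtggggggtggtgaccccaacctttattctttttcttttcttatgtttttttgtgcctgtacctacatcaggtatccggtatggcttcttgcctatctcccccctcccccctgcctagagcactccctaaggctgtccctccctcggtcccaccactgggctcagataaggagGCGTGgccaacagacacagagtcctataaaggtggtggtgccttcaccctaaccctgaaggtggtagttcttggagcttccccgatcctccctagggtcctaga
Cyp1b1, chr17:79715012-79715311, minus strand: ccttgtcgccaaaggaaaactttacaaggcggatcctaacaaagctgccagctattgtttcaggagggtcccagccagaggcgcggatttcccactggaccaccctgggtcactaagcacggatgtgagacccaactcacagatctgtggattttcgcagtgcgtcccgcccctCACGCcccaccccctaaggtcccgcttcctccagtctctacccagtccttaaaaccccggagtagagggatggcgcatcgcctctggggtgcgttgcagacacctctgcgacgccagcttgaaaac
Ahrr, chr13:74292282-74292581, minus strand: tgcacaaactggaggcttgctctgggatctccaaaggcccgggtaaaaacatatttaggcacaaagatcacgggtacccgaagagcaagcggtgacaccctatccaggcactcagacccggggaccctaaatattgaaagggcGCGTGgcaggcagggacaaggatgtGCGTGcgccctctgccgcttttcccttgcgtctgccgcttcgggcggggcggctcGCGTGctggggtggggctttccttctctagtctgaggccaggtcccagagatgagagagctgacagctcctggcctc
Tiparp, chr3:65528197-65528496, plus strand: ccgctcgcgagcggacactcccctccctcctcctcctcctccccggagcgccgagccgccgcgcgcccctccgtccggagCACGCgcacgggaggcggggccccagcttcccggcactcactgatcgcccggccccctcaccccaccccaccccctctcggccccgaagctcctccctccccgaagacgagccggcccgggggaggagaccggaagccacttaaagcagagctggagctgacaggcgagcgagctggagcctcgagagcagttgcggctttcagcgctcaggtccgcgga
Arnt, chr3:95434140-95434439, plus strand: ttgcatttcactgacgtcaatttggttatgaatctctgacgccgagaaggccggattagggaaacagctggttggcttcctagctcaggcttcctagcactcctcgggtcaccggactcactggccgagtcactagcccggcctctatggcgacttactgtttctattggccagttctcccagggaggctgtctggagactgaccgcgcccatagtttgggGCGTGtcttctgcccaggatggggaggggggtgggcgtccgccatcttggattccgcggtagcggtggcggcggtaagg
Cyp1a1, Cyp1b1, Tiparp and Arnt each held 1 match to the core, starting at -54, -76, -170 and -29 from the start site, counted by the leftmost base of the match. Ahrr held 3, at -107, -82 and -27. The matches of Cyp1b1 and Tiparp read on the opposite strand. Positions count from the RefSeq start, and the Cyp1a1 region lies inside the gene span given below, which begins at 57687928. Of 32851 promoters of this length, searched on both strands, 10639 (32.4%) held at least 1 core and 3643 (11.1%) held 2 or more. The longer form TNGCGTG, which contains the core, was found once among the 5, in Ahrr at -29, and in 1664 of all promoters (5.07%). A match describes the letters of this window and shows no binding.

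Library totals ran from 13626480 to 17387553 read counts, and 13058 genes had enough reads to test. Of the 7 AHR genes, 6 were among them and Ahrr was not. Ift88, the gene that carries the orpk insertion, stood at 6.37 to 8.46 counts scaled to depth (CPM, counts per 1e6 reads after TMM scaling) in the 9 orpk libraries and at 12.8 to 17.42 CPM in the 9 WT libraries. Genotype was the main axis of variation, with 90.1% of the variance on the first principal component. At 2 dyn/cm², orpk replicate 2 and WT replicate 1 stood further from their group than other libraries did, by a chi-square of counts divided by its degrees of freedom. Against its 2 replicates the orpk library gave 3.34 and 3.72 and the WT library 6.21 and 7.59, where other pairs gave 1.2 to 2.29. Values without them are given where they bear on a result. Of the 10 endothelial markers, Flt1 made up most of the summed level, at group means of 80.5 to 127 CPM in orpk and 15.5 to 40.4 CPM in WT. Other defining endothelial markers were scarce. Pecam1 averaged 0.146 to 0.414 CPM in orpk groups and 0.584 to 1.27 CPM in WT groups. Robo4 was at 0 in all orpk libraries, as were Cdh5, Erg and Tie1 in all WT libraries. In orpk groups Vwf averaged 3.38 to 5.12 CPM, Kdr 0.788 to 3.09 CPM and Tek 0.618 to 1.89 CPM. Cdh5 and Erg averaged 0.58 to 1.3 CPM in orpk groups. The endothelial markers summed to 83.9 to 137 CPM in orpk and 14.7 to 42.6 CPM in WT. Of the 7 tested, 6 were higher and 1 lower in orpk at each shear, where 44.4% to 44.9% of all genes were higher and 42.0% to 43.4% lower. Cdh5 and Erg had no WT reads and could be called only higher. Kdr, Tek and Vwf had at most 7 reads in any WT group, so nothing is read from this count. The 6 fibroblast markers summed to 20310 to 32420 CPM in orpk and 710 to 1150 CPM in WT, and the 6 smooth muscle and pericyte markers to 1377 to 3589 CPM in orpk and 49.1 to 129 CPM in WT. The 6 epithelial markers summed to 17.36 to 103 CPM in orpk and 311 to 471 CPM in WT. Hepatocyte markers, 5 genes of the tissue in which AHR targets are best studied, summed to at most 0.248 CPM in orpk and 0.12 CPM in WT. The 5 leukocyte markers summed to 5.43 to 15.0 CPM in orpk and 11.8 to 50.1 CPM in WT, with Adgre1 and Cd3e at 0 in both. In both genotypes the endothelial sum was below the fibroblast sum. In WT the fibroblast sum was nearly all Col1a1, at group means of 705 to 1127 CPM. Col1a2 averaged 12.3 to 18.3 CPM in WT groups, and Pdgfra, Dcn, Lum and Thy1 at most 3.79 CPM. The sums are of different genes, so they do not rank the cell types. No endothelial marker other than Flt1 averaged above 5.12 CPM in any group. The name endothelial is thus that of the labels, and these markers do not bear it out.

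Cyp1b1, a P450 that oxidises polycyclic aromatic compounds and oestrogens (ENSMUSG00000024087, chromosome 17, 79701537 to 79715061, minus strand, GRCm38), was the most abundant of the oxidases. In orpk cells it had 409.6, 422.5 and 429.6 CPM static, 1310, 1164 and 1266 CPM at 2 dyn/cm², and 1039, 1019 and 1092 CPM at 30 dyn/cm². In WT cells it had 23.6, 26.9 and 27.1 CPM static, 128.6, 134.4 and 129.9 CPM at 2 dyn/cm², and 126.6, 124.7 and 125.5 CPM at 30 dyn/cm². Every library under flow was above every static library of its genotype, and every orpk library was above every WT library. The order of the groups was orpk at 2, orpk at 30, orpk static, WT at 2, WT at 30 and WT static, and no neighbours in it overlapped. Against static cells, the fitted log2 fold change at 2 dyn/cm² was 1.57 ± 0.04 (SE) in orpk, or 2.96-fold, and 2.34 ± 0.05 in WT, or 5.05-fold. The value at 30 dyn/cm² was 1.32 ± 0.04 in orpk, or 2.5-fold, and 2.28 ± 0.05 in WT, or 4.85-fold. Without orpk replicate 2 or WT replicate 1 at 2 dyn/cm² the values there were 1.61 and 2.35. Between the shears the difference was small, at -0.25 ± 0.04 for 30 against 2 in orpk and -0.06 ± 0.04 in WT.

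Cyp1a1, the classic readout of AHR activity (ENSMUSG00000032315, chromosome 9, 57687928 to 57703824, plus strand), was nearly silent without flow. Over all 18 libraries it had 178 reads. In orpk there were 0, 1 and 0 reads static, 38, 21 and 45 at 2 dyn/cm², and 11, 13 and 5 at 30 dyn/cm². In WT there were 0, 0 and 0 reads static, 10, 11 and 6 at 2 dyn/cm², and 7, 7 and 3 at 30 dyn/cm². All 12 sheared libraries thus held Cyp1a1 reads, against 1 of the 6 static libraries. In CPM the group means were 0.0215 ± 0.0373 static, 2.19 ± 0.81 at 2 and 0.713 ± 0.287 at 30 dyn/cm² in orpk (SD, n = 3 each), and 0, 0.51 ± 0.17 and 0.324 ± 0.139 in WT. For orpk at 2 dyn/cm² against static the ratio was 93.7, with an exact 95% counting interval of 16.5 to 3736, since static orpk cells had only 1 read. For orpk at 30 dyn/cm² it was 31.1 (5.16 to 1270). In WT, the observed level was 7.91 times a floor of 3 reads over the static group (0.0638 CPM) at 2 and 5.04 times at 30 dyn/cm². These 2 values leave out the counting error of the sheared reads. The 95% counting intervals began at 0.333 CPM at 2 and 0.187 CPM at 30 dyn/cm², and that of static WT ended at 0.0785 CPM. The level at 30 was below that at 2 dyn/cm² in orpk, by a fitted log2 fold change of -1.58 ± 0.32 with no overlap (-1.87 without orpk replicate 2 at 2 dyn/cm²). In WT that difference was -0.64 ± 0.50 and the libraries overlapped.

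Aldh3a1, an aldehyde dehydrogenase found beside the CYP1 genes in many AHR target lists (ENSMUSG00000019102, chromosome 11, 61207537 to 61218421, plus strand), showed the same order of groups in orpk as Cyp1b1. In orpk it had 2.07, 2.39 and 2.27 CPM static, 17.39, 13.4 and 15.3 CPM at 2 dyn/cm², and 9.59, 10.4 and 9.46 CPM at 30 dyn/cm², with no overlap between any of these groups. The log2 fold change against static was 2.77 ± 0.14 at 2 dyn/cm², or 6.8-fold (2.86 without orpk replicate 2), and 2.13 ± 0.15 at 30 dyn/cm², or 4.37-fold. In WT the gene was near the limit of detection, with 4 reads static, 23 at 2 and 8 at 30 dyn/cm² summed over the 3 libraries of each group. The WT levels were 0.0653, 0.07 and 0.115 CPM static, 0.598, 0.3 and 0.38 CPM at 2 dyn/cm², and 0.24, 0.0555 and 0.165 CPM at 30 dyn/cm². With shear at 2 dyn/cm² all WT libraries were above the static ones, with a ratio of 5.05 and a counting interval of 1.73 to 20.1. The fitted value there was 2.24 ± 0.63, and 1.91 without WT replicate 1. The WT libraries at 30 dyn/cm² overlapped the static ones, and the fitted value was 0.78 ± 0.80, or 0.35 without WT replicate 1 at 30 dyn/cm².

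**Figure D1:**
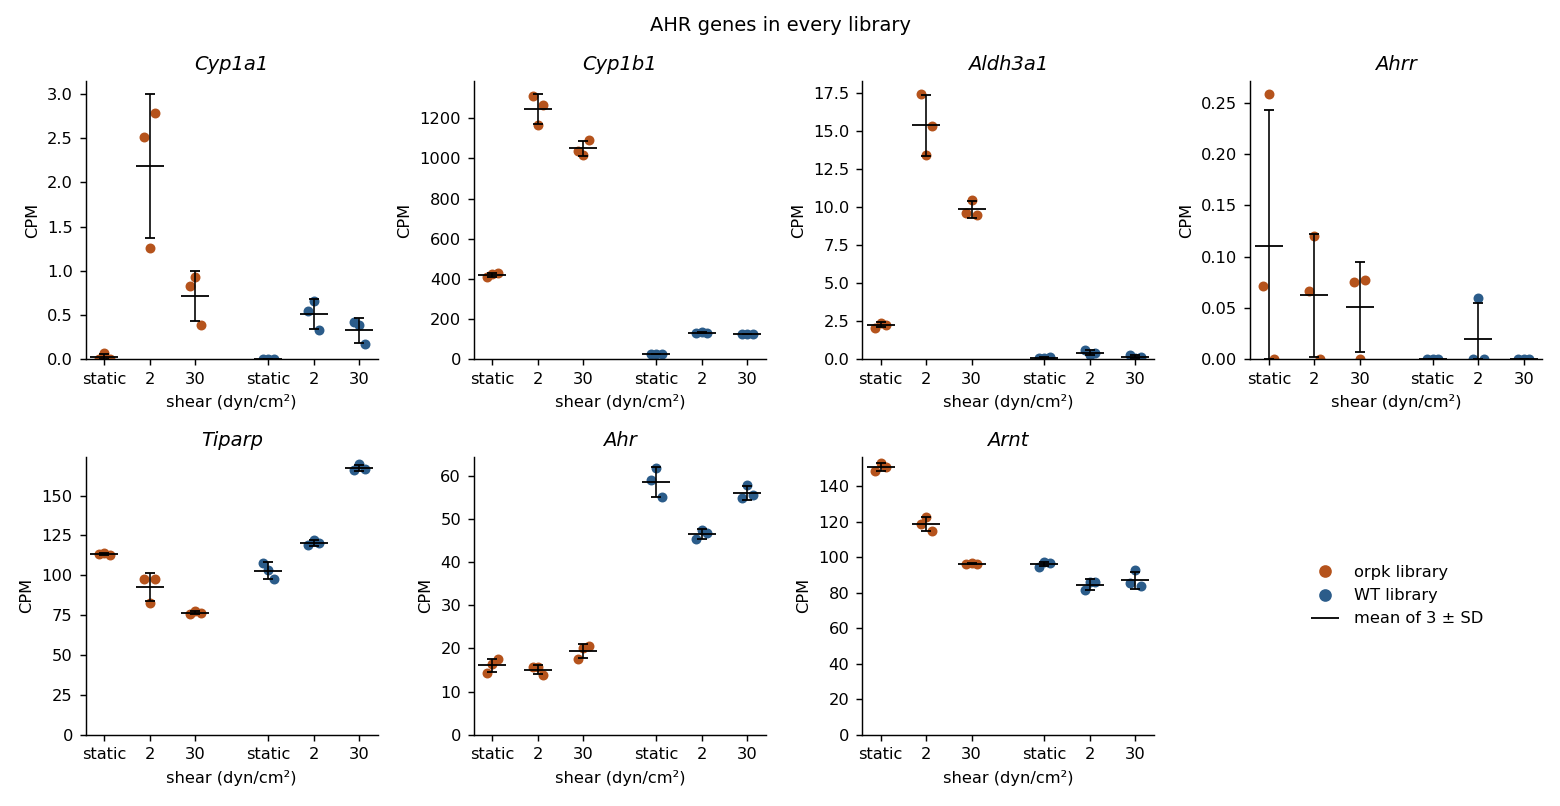
Level of each of the 7 genes in each of the 18 libraries, in CPM on linear axes that start at 0, by genotype and shear; points are libraries and bars are the mean ± SD of 3. Cyp1b1, Cyp1a1 and, in orpk, Aldh3a1 are above static under both shears, whereas Ahr separates the genotypes with 13.9 to 20.5 CPM in orpk and 45.4 to 61.7 CPM in WT.

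The receptor itself ran the other way between the genotypes. Ahr (ENSMUSG00000019256, chromosome 12, 35497974 to 35535038, minus strand) had 14.4, 16.3 and 17.5 CPM static, 15.7, 15.7 and 13.9 CPM at 2 dyn/cm², and 17.5, 20.2 and 20.5 CPM at 30 dyn/cm² in orpk cells. In WT cells it had 59.01, 61.7 and 54.9 CPM static, 45.4, 47.5 and 46.7 CPM at 2 dyn/cm², and 54.7, 57.9 and 55.4 CPM at 30 dyn/cm². All 9 orpk libraries were below all 9 WT libraries, by 3.63-fold in static cells (log2 fold change -1.86 ± 0.07). Against static, Ahr at 2 dyn/cm² differed by -0.09 ± 0.08 in orpk, where libraries overlapped, and by -0.33 ± 0.05 in WT, where they did not. For 30 dyn/cm² the difference was 0.27 ± 0.08 in orpk, with the groups adjoining, and -0.06 ± 0.05 in WT, with overlap. A long non-coding RNA gene, Gm48236, overlaps Ahr on the other strand, and whether counting used the strand is not given.

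Arnt, the partner that AHR shares with the hypoxia factors (ENSMUSG00000015522, chromosome 3, 95434388 to 95497240, plus strand), was lower under flow in both genotypes. In orpk it had 149, 153 and 151 CPM static, 119, 123 and 115 CPM at 2 dyn/cm², and 96.3, 96.6 and 96.1 CPM at 30 dyn/cm². In WT it had 94.8, 97.3 and 96.6 CPM static, 81.4, 86.3 and 86.3 CPM at 2 dyn/cm², and 85.3, 92.6 and 83.6 CPM at 30 dyn/cm². In orpk the 3 groups did not overlap, and the log2 fold changes against static were -0.35 ± 0.04 at 2 and -0.65 ± 0.04 at 30 dyn/cm². In WT both sheared groups were below static, with log2 fold changes of -0.18 ± 0.04 and -0.14 ± 0.04, and they overlapped each other. The orpk libraries at 30 dyn/cm² lay within the range of the static WT libraries. With library totals as the scaling the WT differences shrank to -0.07 and -0.05. A processed pseudogene, Gm42672, lies within Arnt on the same strand.

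Of the repressors, Ahrr was barely detected and Tiparp was abundant. Ahrr (ENSMUSG00000021575, chromosome 13, 74211118 to 74292331, minus strand) had 11 reads in all, in 7 libraries. They were 5, 3 and 2 reads in orpk static, at 2 and at 30 dyn/cm², and 0, 1 and 0 in the WT groups. Ahrr therefore gives no comparison at this depth. Its promoter, shown above, is the one with 3 core matches.

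Tiparp, the ADP-ribosyltransferase also called PARP7 (ENSMUSG00000034640, chromosome 3, 65528410 to 65555518, plus strand), took opposite directions in the genotypes. In orpk it had 113.1, 113.9 and 113.0 CPM static, 97.5, 82.7 and 97.8 CPM at 2 dyn/cm², and 75.9, 77.5 and 76.3 CPM at 30 dyn/cm². In WT it had 107.8, 103.4 and 97.4 CPM static, 118.8, 122.1 and 120 CPM at 2 dyn/cm², and 165.9, 169.7 and 166.6 CPM at 30 dyn/cm². Within each genotype no groups overlapped, with the order static, 2, 30 dyn/cm² running downwards in orpk and upwards in WT. The log2 fold change at 2 dyn/cm² against static was -0.29 ± 0.05 in orpk (-0.21 without orpk replicate 2) and 0.23 ± 0.04 in WT (0.24 without WT replicate 1). The value at 30 dyn/cm² was -0.57 ± 0.05 in orpk and 0.70 ± 0.04 in WT. The difference between these changes, orpk minus WT, was -0.52 ± 0.06 at 2 and -1.27 ± 0.07 at 30 dyn/cm². A pseudogene, 4931440P22Rik, overlaps Tiparp on the other strand.

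**Figure D2:**
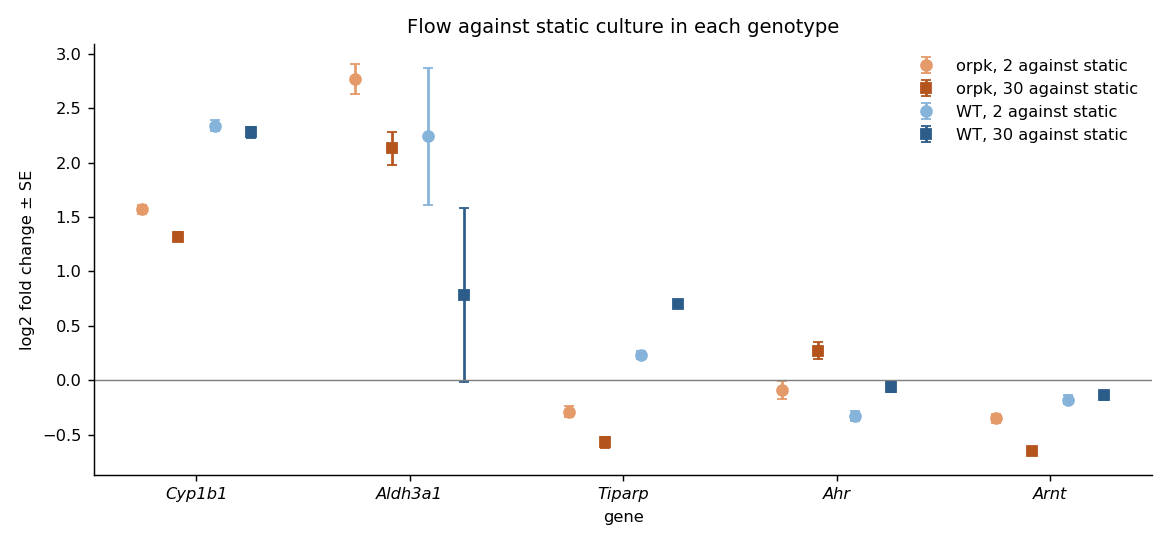
Fitted log2 fold change ± SE of Cyp1b1, Aldh3a1, Tiparp, Ahr and Arnt at 2 and 30 dyn/cm² against static cells of the same genotype. Cyp1b1 is above 0 in all 4 comparisons, Arnt is below 0 in all 4 (close to 0 in WT with library totals as the scaling), and Tiparp is below 0 in orpk (-0.29 and -0.57) and above 0 in WT (0.23 and 0.70).

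Compared per length, as reads per kilobase of exon scaled to depth (RPKM), static orpk cells had the order Cyp1b1 (72.0), Tiparp (26.0), Arnt (18.9), Ahr (2.61), Aldh3a1 (1.16), with Ahrr and Cyp1a1 near 0.01. In static WT cells the order was Tiparp (23.6), Arnt (12.02), Ahr (9.5) and Cyp1b1 (4.43), with Aldh3a1 at 0.0429. Cyp1b1 RPKM was thus above that of the receptor in static orpk cells and below it in static WT cells. At 2 dyn/cm² Cyp1b1 reached 213 RPKM in orpk and 22.4 RPKM in WT, where it lay between Tiparp at 27.6 RPKM and Arnt at 10.6 RPKM.

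Many genes differed in every comparison, and counts of AHR genes are set beside that background. At 2 dyn/cm² against static in orpk, 5 of the 6 tested AHR genes passed the edgeR threshold (adjusted p below 0.05), and 62.0% of all tested genes did. For 30 dyn/cm² in orpk it was 6 of 6, with 69.9% of all genes, and between 30 and 2 dyn/cm² in orpk 6 of 6, with 63.6%. In WT it was 6 of 6 at 2 dyn/cm² against static, with 62.9% of all genes, 4 of 6 at 30 dyn/cm² against static, with 66.9%, and 3 of 6 at 30 against 2 dyn/cm², with 33.1%. Between orpk and WT it was 5 of 6 in static cells, with 87.8% of all genes, 6 of 6 at 2 dyn/cm², with 87.5%, and 6 of 6 at 30 dyn/cm², with 86.9%. For the difference in response between genotypes it was 4 of 6 at 2 dyn/cm² against static, with 52.6% of all genes, 4 of 6 at 30 dyn/cm² against static, with 57.5%, and 3 of 6 at 30 against 2 dyn/cm², with 46.5%. The genes were chosen on these contrasts, and nothing is read from these counts. Comparisons of 2 and of 30 dyn/cm² in 1 genotype share their static libraries.

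Between the genotypes, Cyp1b1 and Aldh3a1 were higher in orpk and the receptor lower, at every shear. Cyp1a1 was too low in static cells to compare, with 1 read in orpk and 0 in WT. On the log2 scale, Cyp1b1 in orpk exceeded WT by 4.02 ± 0.05 in static cells, or 16.2-fold, 3.25 ± 0.04 at 2 and 3.06 ± 0.04 at 30 dyn/cm². For Aldh3a1 it was 4.6 ± 0.43 in static cells, where WT had 4 reads and the ratio was 26.4 (9.99 to 98.9), 5.13 ± 0.18 at 2 (5.45 without WT replicate 1) and 5.95 ± 0.25 at 30 dyn/cm². Cyp1a1 differed by 2.09 ± 0.32 at 2 dyn/cm² without overlap and by 1.14 ± 0.49 at 30 dyn/cm² with overlap. The Ahr difference was -1.62 ± 0.07 at 2 and -1.53 ± 0.07 at 30 dyn/cm². Arnt was higher in orpk by 0.65 ± 0.04 in static cells and 0.49 ± 0.04 at 2 dyn/cm². The Arnt value at 30 dyn/cm² was 0.14 ± 0.04, and -0.17 with library totals as the scaling. Tiparp was 0.14 ± 0.05 in static cells, and -0.07 with library totals, then -0.38 ± 0.05 at 2 and -1.13 ± 0.05 at 30 dyn/cm². The endothelial, fibroblast, smooth muscle, pericyte and epithelial marker sums given above also differed between all orpk and all WT libraries without overlap. Their part in these differences was not tested, and in bulk RNA fewer cells of a type and less RNA per cell cannot be told apart.

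Across the flow comparisons the marker sums moved as well. In orpk the fibroblast sum was 31420 to 32420 CPM static, 20310 to 23700 CPM at 2 and 26290 to 27940 CPM at 30 dyn/cm², and the smooth muscle and pericyte sum was 1377 to 1498, 1739 to 1967 and 3404 to 3589 CPM. In WT the fibroblast sum was 981 to 1046, 710 to 734.5 and 1143 to 1150 CPM, and the smooth muscle and pericyte sum was 49.1 to 51.9, 62.7 to 70.5 and 116 to 129 CPM. These fibroblast sums were nearly all Col1a1 and Col1a2, and in WT nearly all Col1a1. The smooth muscle and pericyte sum in WT was nearly all Tagln, at means of 46.4, 61.8 and 118 CPM. Of its other genes in WT, Pdgfrb was highest at 30 dyn/cm², at 4.29 CPM, and Cnn1 was lowest there, at 0.928 CPM. WT Acta2 averaged 0.697 to 0.789 CPM. In orpk Pdgfra averaged 539 CPM at 2 and 149 CPM at 30 dyn/cm², against 1775 CPM static, Dcn and Lum were also lowest at 30, and Thy1 was highest there, at 79.1 CPM against 37.1 CPM static. The epithelial sum was 92.6 to 103 CPM static, 48.6 to 59.7 CPM at 2 and 17.36 to 20 CPM at 30 dyn/cm² in orpk, and 463 to 471, 311 to 334.5 and 405 to 429.6 CPM in WT. In orpk this sum was nearly all Krt19, at means of 96.9, 53.5 and 17.2 CPM. Krt19 also fell in WT, from 162 CPM static to 17.85 CPM at 2 and 16.15 CPM at 30 dyn/cm². Epcam, Krt8, Krt18 and Cldn4 were instead higher at 30 dyn/cm² than static in WT. The endothelial sum was 104 to 106, 83.9 to 93.8 and 134 to 137 CPM in orpk, and 40.4 to 42.6, 14.7 to 17.7 and 16.5 to 18.5 CPM in WT. The leukocyte sum was 12.7 to 15.0, 9.74 to 10.7 and 5.43 to 6.07 CPM in orpk, and 43.5 to 50.1, 42.9 to 46.4 and 11.8 to 12.9 CPM in WT. The WT fall was that of Csf1r, at 44.3 CPM static and 8.96 CPM at 30 dyn/cm², while Cd68 was at 2.65 and 3.22 CPM. The part of cell makeup in the flow differences was not tested.

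The size of the Cyp1b1 response differed between genotypes on the log2 scale. The change in orpk minus that in WT was -0.77 ± 0.07 at 2 and -0.96 ± 0.07 at 30 dyn/cm², although the gain in CPM was larger in orpk, whose static level was already 16.2-fold higher. For Aldh3a1 the same difference was 0.53 ± 1.00 and 1.35 ± 0.98, so wide that the 4 static WT reads leave it undetermined at this depth. For Ahr it was 0.24 ± 0.10 and 0.33 ± 0.10, and for Arnt -0.16 ± 0.06 and -0.51 ± 0.06.

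Correlations among the AHR genes are a description only, since the oxidases were chosen with their response to flow known. Over the 18 libraries, with log2 CPM centred within genotype, Pearson r was 0.846 for Cyp1a1 with Cyp1b1, 0.897 for Cyp1a1 with Aldh3a1 and 0.728 for Cyp1b1 with Aldh3a1. Arnt had r of -0.647, -0.639 and -0.753 with Cyp1a1, Cyp1b1 and Aldh3a1, and Tiparp had r of 0.22 with Cyp1b1 and -0.376 with Aldh3a1. These points share their libraries and fall into 6 groups, so they describe the group pattern. Static Cyp1a1 had 1 read in orpk and 0 in WT, and static WT Aldh3a1 had 4. Genes outside the set had higher r with Cyp1a1, up to 0.955 for Pidd1 and Ccne1, so nothing is read from these values.

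The genes whose pattern was most like that of Cyp1b1, by the same measure among 10473 genes with a mean of at least 5 CPM, were Cpt1a (r = 0.994), Apmap (0.991), Prkab1 (0.987), Gtf2e1 (0.983) and Med22 (0.983). Cpt1a, which loads fatty acids for entry into mitochondria, averaged 159 CPM static, 399 CPM at 2 and 333 CPM at 30 dyn/cm² in orpk, and 61.2, 230.2 and 194 CPM in WT. The other 4 followed the same order of groups within orpk with smaller changes. They encode a membrane protein of adipocytes, a subunit of the AMP-activated kinase, a subunit of the general factor TFIIE and a Mediator subunit, and their log2 fold changes at 2 dyn/cm² against static were 0.34 to 0.38 in orpk and 0.47 to 0.61 in WT. The genes most like Cyp1a1 among 10474 were Pidd1 (0.955), Ccne1 (0.955), Mad2l1 (0.953), Aaas (0.953) and Lman2l (0.949). Ccne1, which encodes cyclin E1, had 42.7, 128.5 and 75.1 CPM in orpk and 46.3, 77.3 and 73.0 CPM in WT at static, 2 and 30 dyn/cm².

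**Figure D3:**
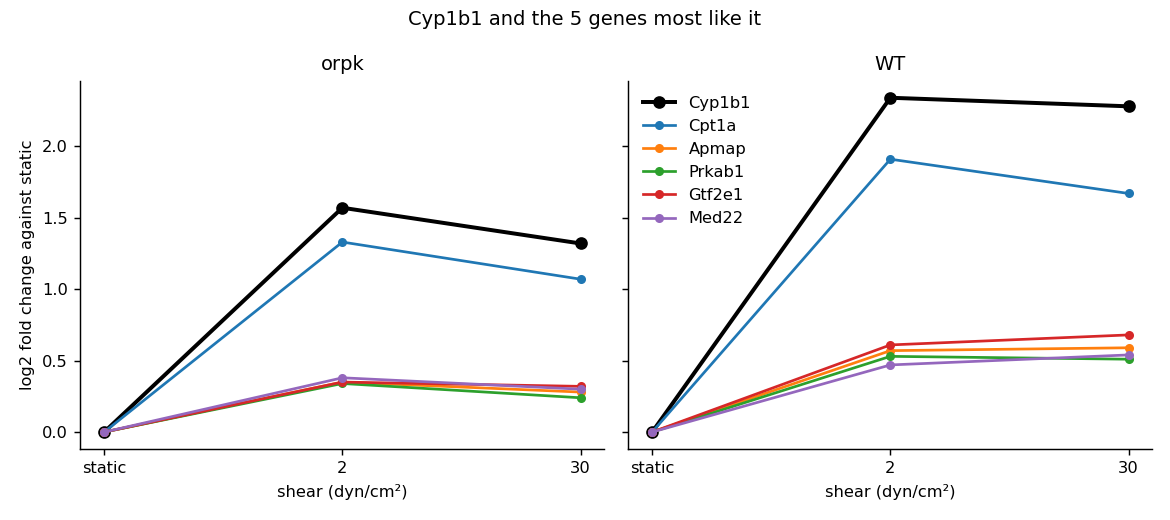
Fitted log2 fold change against static cells of Cyp1b1 and the 5 genes most like it, at 2 and 30 dyn/cm², in orpk (left) and WT (right). Cyp1b1 and Cpt1a lie above the other 4 genes at both shears in both panels, with Cpt1a at 1.33 and 1.07 in orpk and at 1.91 and 1.67 in WT.

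Other genes reported as AHR targets did not move as a block under flow. Of 25 listed, 19 were tested, and Cyp1a2, the third CYP1 gene, had 3 reads in all. Against static at 2 dyn/cm², 7 rose and 5 fell in orpk, with a median log2 fold change of 0.08, and 4 rose and 7 fell in WT, with a median of 0.04. At 30 dyn/cm², 8 rose and 8 fell in orpk (median 0.05), and 5 rose and 6 fell in WT (median 0.00). In WT 5 of the 19 had no reads in at least 1 of the groups compared, at either shear. The WT median at 30 dyn/cm² fell on a gene without reads, so it is not a measured lack of change. Between 30 and 2 dyn/cm² in orpk 7 rose and 9 fell (median -0.35), against 32.1% higher and 31.5% lower over all genes. The median over all tested genes was between 0 and 0.02 in these comparisons, in which 30.9%, 32.6%, 36.5% and 34.1% of all genes were higher and 31.1%, 30.3%, 33.3% and 32.7% lower.

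Nqo1, a quinone reductase driven by both AHR and NRF2, rose in all 4 of these comparisons. It averaged 20.0 ± 2.7 CPM static, 58.1 ± 0.5 at 2 and 70.6 ± 4.6 at 30 dyn/cm² in orpk (SD, n = 3 each), and 0.636 ± 0.359, 2.67 ± 0.09 and 1.99 ± 0.37 CPM in WT. The log2 fold change at 2 dyn/cm² was 1.54 ± 0.07 in orpk (edgeR adjusted p = 6.57e-22) and 2.10 ± 0.28 in WT (edgeR adjusted p = 1.57e-08). At 30 dyn/cm² it was 1.82 ± 0.07 in orpk (edgeR adjusted p = 6.03e-25), a value outside the naming rule and chosen after it was seen, and 1.67 ± 0.30 in WT (edgeR adjusted p = 4.52e-06). Its level in static orpk cells was above that in static WT cells by 5.00 ± 0.18 on the log2 scale (edgeR adjusted p = 3.33e-27). The difference in response between genotypes did not pass, at -0.56 ± 0.31 for 2 dyn/cm² (edgeR adjusted p = 0.127) and 0.15 ± 0.37 for 30 dyn/cm² (edgeR adjusted p = 0.772). Without WT static replicate 2 the first of these was -1.08 and passed.

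Other targets split. Ptgs2, the inducible cyclooxygenase, averaged 93.0 ± 9.4 CPM static, 93.6 ± 10.1 at 2 and 685 ± 8 at 30 dyn/cm² in orpk, and 10 ± 1.4, 20.1 ± 1.6 and 26.9 ± 1.4 CPM in WT. It rose at 30 dyn/cm² by 2.88 ± 0.07 in orpk (edgeR adjusted p = 4.14e-17) and by 1.42 ± 0.13 in WT (edgeR adjusted p = 1.47e-08). Selenbp1, a selenium-binding methanethiol oxidase, fell in both, to 0.15 ± 0.08 CPM at 30 dyn/cm² in orpk, against 6.64 ± 0.83 CPM static, and to 8.11 ± 0.89 CPM in WT, against 128 ± 8 CPM static. Its log2 fold changes were -5.40 ± 0.35 in orpk (edgeR adjusted p = 4.43e-16) and -3.99 ± 0.08 in WT (edgeR adjusted p = 1.44e-31). Xdh, xanthine dehydrogenase, fell at 30 dyn/cm² in orpk to 33.8 ± 2.1 CPM, against 218 ± 11 CPM static (-2.69 ± 0.05, edgeR adjusted p = 5.84e-36). Cdkn1b and Vav3, named after their values were seen, fell in all 4 comparisons with static. Cdkn1b, a cell cycle inhibitor, had log2 fold changes at 2 and 30 dyn/cm² of -1.10 ± 0.04 and -1.67 ± 0.05 in orpk and -0.81 ± 0.04 and -0.84 ± 0.04 in WT (edgeR adjusted p at most 3.91e-20). Vav3, a signalling protein, had -0.73 ± 0.07 and -1.47 ± 0.09 in orpk and -0.43 ± 0.07 and -0.29 ± 0.07 in WT (edgeR adjusted p at most 0.000231). Il6, an inflammatory cytokine, rose at 30 dyn/cm² in orpk by 2.62 ± 0.28 (edgeR adjusted p = 4.69e-11) to 3.19 ± 0.40 CPM, against 0.513 ± 0.236 CPM static.

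**Figure D4:**
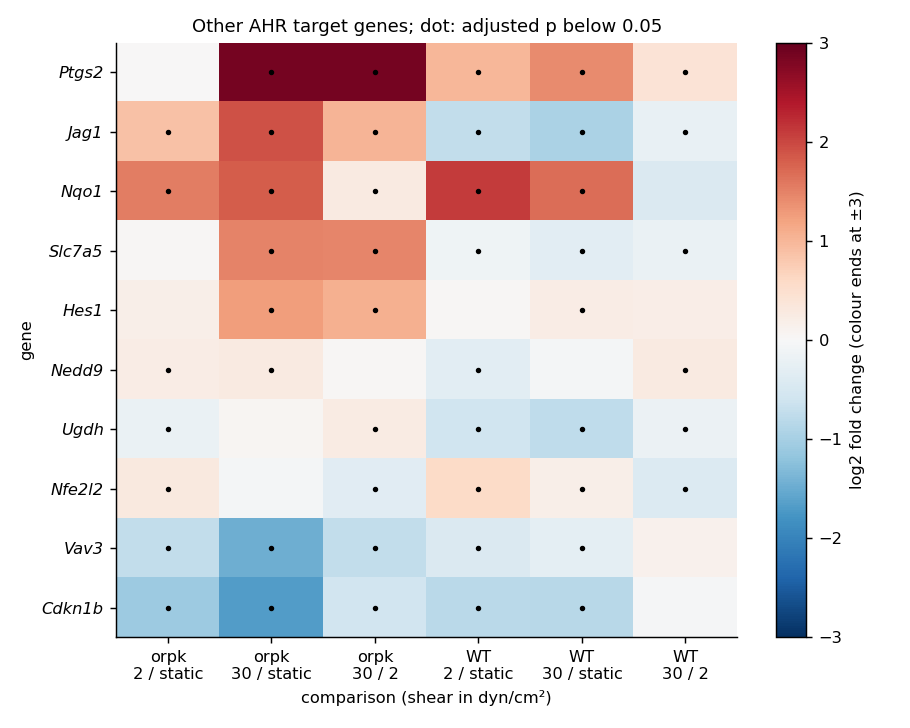
Log2 fold changes of the 10 other AHR target genes with a mean of at least 0.5 CPM in every group, of 19 tested, in the 6 flow comparisons; colour runs from -3 to 3, and a dot marks an edgeR adjusted p below 0.05. Nqo1 is positive with a dot in all 4 comparisons with static (1.54 and 1.82 in orpk, 2.10 and 1.67 in WT), Ptgs2 and Hes1 are positive in all 4 without a dot in each, Cdkn1b and Vav3 are negative with a dot in all 4, and the other 5 genes differ in sign between comparisons.

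Between genotypes, 13 of the 19 targets were higher in orpk and 3 lower in static cells, with a median of 0.97, against 44.4% higher and 43.4% lower over all genes. At 2 dyn/cm² it was 13 and 4 (median 1.52), against 44.6% and 42.9%, and at 30 dyn/cm² 15 and 4 (median 1.67), against 44.9% and 42.0%. The medians over all genes were 0.01, 0.02 and 0.04. In static cells 5 of the 19 targets had no reads in WT, at 2 dyn/cm² 1 and at 30 dyn/cm² 3. Such genes entered the test through their orpk reads and could be called only higher, so nothing is read from these counts. The fibroblast marker sum was at least 20310 CPM in orpk and at most 1150 CPM in WT throughout, and its part in these counts was not tested.

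The chaperones and coactivators of AHR, 15 genes, had medians close to 0 under flow. Against static, 7 rose and 3 fell at 2 dyn/cm² in orpk and 7 rose and 3 fell at 30 dyn/cm² (medians 0.11 and 0.09). With RLE scaling these were 6 and 4, then 5 and 5, and with library totals 8 and 0, then 6 and 3. In WT 4 rose and 7 fell at 2 dyn/cm² (median -0.14, but 7 and 5 with library totals as the scaling), and 8 rose and 5 fell at 30 dyn/cm² (median 0.09). The shares of all genes higher and lower were those given for the AHR targets. Hsp90aa1, the inducible HSP90, rose in orpk by 0.69 ± 0.04 at 2 (edgeR adjusted p = 1.85e-18) and 0.42 ± 0.04 at 30 dyn/cm² (edgeR adjusted p = 5.82e-12). It also rose in WT, by 0.23 ± 0.04 and 0.33 ± 0.04 (edgeR adjusted p = 2.27e-06 and 5.51e-10). Ptges3, the p23 co-chaperone, rose in orpk by 0.28 ± 0.06 at 2 (edgeR adjusted p = 0.000102) and 0.45 ± 0.06 at 30 dyn/cm² (edgeR adjusted p = 1.5e-08). Nrip1, a nuclear receptor corepressor that also binds AHR, rose in WT at 30 dyn/cm² by 0.82 ± 0.05 (edgeR adjusted p = 1.62e-17). Between 30 and 2 dyn/cm² in WT 8 of the 15 rose and none fell, against 15.9% higher and 17.2% lower over all genes, and leaving out WT replicate 2 at 2 dyn/cm² or WT replicate 1 at 30 dyn/cm² left 5 called, while leaving out WT replicate 1 at 2 dyn/cm² gave 11. In static cells 5 were higher and 10 lower in orpk than in WT (median -0.26), Hsp90aa1 among the lower (-0.76 ± 0.04, edgeR adjusted p = 8.94e-21).

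Of the other bHLH-PAS genes, the protein family of AHR and ARNT, 11 were tested. In WT none rose and 7 fell at 2 dyn/cm², and none rose and 8 fell at 30 dyn/cm² (medians -0.50 and -0.55), where 32.6% of all genes were higher and 30.3% lower at 2, and 34.1% and 32.7% at 30 dyn/cm². In orpk 2 rose and 3 fell at 2 dyn/cm², and 4 rose and 2 fell at 30 dyn/cm² (medians 0.28 and 0.22), where 30.9% of all genes were higher and 31.1% lower at 2, and 36.5% and 33.3% at 30 dyn/cm². For the change at 30 dyn/cm² against static, orpk minus WT, 6 of the 11 were higher and 2 lower (median 0.64), against 30.6% and 26.9% of all genes. Hif1a, which takes ARNT as its partner in low oxygen, fell in all 4, to 382 ± 9 CPM at 2 and 283 ± 2 CPM at 30 dyn/cm² in orpk, against 609.5 ± 35.3 CPM static, and to 215 ± 5 and 208 ± 8 CPM in WT, against 387 ± 37 CPM static. Its log2 fold changes were -0.67 ± 0.05 and -1.11 ± 0.05 in orpk (edgeR adjusted p = 3.88e-13 and 2.87e-18) and -0.85 ± 0.05 and -0.90 ± 0.05 in WT (edgeR adjusted p = 5.11e-15 and 8.53e-16). Arnt2, a paralog of Arnt, was found mainly in orpk, where it averaged 41.4 ± 1.6 CPM static, 67.1 ± 1.9 at 2 and 63.0 ± 1.7 at 30 dyn/cm², and stayed below 1 CPM on average in each WT group. In orpk it rose by 0.70 ± 0.06 at 2 (edgeR adjusted p = 1.47e-13) and 0.61 ± 0.06 at 30 dyn/cm² (edgeR adjusted p = 9.83e-12), while Arnt was lower in the same libraries.

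The enzymes of the tryptophan and kynurenine route, whose products can bind AHR, were mostly low, with 9 of 17 tested. In orpk 2 rose and 3 fell at 2 dyn/cm², with 2 and 1 under library totals as the scaling, and 0 rose and 5 fell at 30 dyn/cm² (medians -0.16 and -0.75). In WT 3 rose and 1 fell at 2, and 3 rose and 2 fell at 30 dyn/cm² (medians 0.36 and 0.39). Over all genes 30.9% were higher and 31.1% lower at 2 and 36.5% and 33.3% at 30 dyn/cm² in orpk, with 32.6% and 30.3%, then 34.1% and 32.7%, in WT. Tdo2, which opens the tryptophan ring in liver, and Kynu had 19 and 4 reads in all and were not tested. Ido2, a related dioxygenase, fell in orpk to 1.16 ± 0.48 CPM at 2 dyn/cm² and 0.865 ± 0.179 CPM at 30 dyn/cm², against 4.82 ± 0.52 CPM static (-2.04 ± 0.21 and -2.46 ± 0.24, edgeR adjusted p = 1.58e-10 and 1.63e-11). Kyat1, a kynurenine aminotransferase, rose in WT by 0.72 ± 0.12 at 2 and 0.80 ± 0.12 at 30 dyn/cm² (edgeR adjusted p = 2.91e-06 and 2.87e-07).

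The families of the oxidases were set beside them. In the order orpk at 2 and 30, then WT at 2 and 30 dyn/cm², 30.9%, 36.5%, 32.6% and 34.1% of all genes were higher than static and 31.1%, 33.3%, 30.3% and 32.7% lower. Of 98 other P450 genes 23 were tested, and against static 7 rose and 5 fell at 2 dyn/cm² and 4 rose and 10 fell at 30 dyn/cm² in orpk, with 4 and 3, then 4 and 8, in WT. Their medians were -0.04 (0.06 with library totals), -0.37, 0.00 and 0.00. In WT 4 of the 23 at 2 and 5 at 30 dyn/cm² had no reads in at least 1 of the groups compared. Both WT medians fell on genes without reads, so they are not a measured lack of change. Of 20 other aldehyde dehydrogenase genes 14 were tested, with 6 up and 3 down at 2 and 7 up and 6 down at 30 dyn/cm² in orpk, and 4 and 4, then 2 and 4, in WT. With RLE the orpk count at 30 dyn/cm² was 6 and 6. Aldh3a2, the fatty aldehyde dehydrogenase and a relative of Aldh3a1, rose in all 4 comparisons with static. In orpk the rise was 0.49 ± 0.05 at 2 and 0.73 ± 0.05 at 30 dyn/cm² (edgeR adjusted p = 3.54e-12 and 1.43e-17). In WT it was 0.47 ± 0.05 at 2 and 0.21 ± 0.05 at 30 dyn/cm² (edgeR adjusted p = 1.22e-11 and 0.000127). Of 16 genes named for poly-ADP-ribose polymerases, relatives and binding proteins of the group Tiparp belongs to, 8 rose and 2 fell at 2 and 5 rose and 9 fell at 30 dyn/cm² in orpk. In WT 3 rose and 7 fell at 2, but 6 and 5 with library totals, and 2 rose and 7 fell at 30 dyn/cm², with 6 and 7 under library totals. Parp10, a mono-ADP-ribosyltransferase, fell by 0.79 ± 0.05 at 30 dyn/cm² in orpk (edgeR adjusted p = 4.13e-17), and Parp2, which repairs DNA breaks, rose by 0.92 ± 0.06 at 2 dyn/cm² in orpk (edgeR adjusted p = 2.54e-16).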

How the data were processed

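The data are 18 mouse RNA libraries, 3 for each of 6 groups, with groups and replicate numbers taken from the labels. Per the labels' protocols, libraries were made from mRNA with a stranded kit and read from 1 end for 50 nt. Per the submitters' processing notes, reads went through CASAVA 1.8.2, STAR 2.4 on GRCm38 and featureCounts 1.4.6. The authors deposited the read count per gene as whole numbers. Strand setting and treatment of reads with several matches are not given in the sources used here.

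Gene positions and exon lengths came from GENCODE M21 (GRCm38). The fit used edgeR 4.0.16 in R 4.3.3. Default filterByExpr left 13058 of 21647 genes, TMM factors scaled the libraries, and 1 mean per group was estimated with robust quasi-likelihood dispersions (biological coefficient of variation 3.28%, 12 residual degrees of freedom). Each of 12 comparisons was tested by the quasi-likelihood F test, with Benjamini-Hochberg adjustment over all genes at 0.05. CPM are TMM-normalised, and each SD is taken within a group of 3. Since separate cultures or animals are not named, p-values reflect spread among these libraries only, and that spread may be technical. Fitted values are given only where each group compared had over 3 reads. Otherwise the observed level is set over a floor of 3 reads, without an interval, or a ratio is given with an exact 95% interval. These intervals cover counting error alone. The method was tested on simulated data.

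The AHR genes and the gene lists were chosen with earlier results of these data known. All 7 AHR genes were named in every comparison, as were, of each list and comparison, up to 4 genes past the threshold with the largest change, and the 5 genes most like Cyp1b1 and Cyp1a1. The text gives a selection of the list genes, and Nqo1 (in orpk at 30 dyn/cm², between genotypes and in the differences of response), Cdkn1b, Vav3, Hes1, Cyp1a2, Tdo2 and Kynu were named outside this rule, after their values were seen. Samples with the same replicate number did not deviate together (correlations -0.052 to 0.055), so no block was used. Alternatives were RLE scaling, library totals as the scaling, no filter, the compared groups alone, DESeq2 1.42.0, a replicate block and each library left out in turn.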

Additional observations from a re-analysis of the deposited data

Results flagged for a closer look

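Among the other AHR targets and the bHLH-PAS relatives with over 3 reads in each group compared, 8 genes are listed. Their change at 30 dyn/cm² against static differed between orpk and WT, by the test of that difference. They are not all that passed, but the 4 of each list with the largest difference. Of all tested, 6 of 19 targets were higher and 5 lower in this difference, and 6 of 11 relatives were higher and 2 lower. Over all genes 30.6% were higher and 26.9% lower. The values are the log2 change in orpk minus that in WT, with edgeR adjusted p over all genes, in a comparison where 57.5% of genes passed. They were -3 ± 0.64 for the oxidase Cyp2s1 (edgeR adjusted p = 1e-04), 2.87 ± 0.07 for the Notch ligand Jag1 (edgeR adjusted p = 1.27e-27), 1.82 ± 0.06 for the amino acid transporter Slc7a5 (edgeR adjusted p = 1.44e-25) and 1.46 ± 0.16 for Ptgs2 (edgeR adjusted p = 2.39e-07). Jag1 averaged 276 ± 5 CPM at 30 dyn/cm², against 73.5 ± 6.4 CPM static, in orpk, and 94.6 ± 3.1 CPM, against 184 ± 12 CPM static, in WT. Slc7a5 averaged 327 ± 9 CPM at 30 dyn/cm², against 116 ± 5 CPM static, in orpk, and 163 ± 5 CPM, against 203 ± 4 CPM static, in WT. For the relatives of AHR the values were -3.89 ± 1.08 for Hif3a (edgeR adjusted p = 0.00212), 3.06 ± 0.59 for Arnt2 (edgeR adjusted p = 2.24e-05), 2.12 ± 0.38 for Arntl2 (edgeR adjusted p = 1.75e-05) and 1.59 ± 0.27 for Npas3 (edgeR adjusted p = 3.08e-06). WT levels of Hif3a and Arnt2 averaged under 1 CPM in each group, and the Hif3a call was lost without WT replicate 1 at 30 dyn/cm², at -2.74. Cyp2s1 averaged under 0.5 CPM in at least 1 group. Its changes at 30 dyn/cm² against static were -1.85 ± 0.56 in orpk and 1.14 ± 0.31 in WT.

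Tiparp is listed because every orpk library moved down and every WT library up under flow. The difference of the log2 changes, orpk minus WT, was -0.52 at 2 and -1.27 at 30 dyn/cm², and both are among the differences past the edgeR threshold counted in the report. No p is given, because the gene was chosen with these values known.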

How the results depend on the processing

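Scaling mattered most. With library totals as the scaling, Cyp1b1 against static was 1.67 at 2 dyn/cm² in orpk and 2.45 and 2.36 at 2 and 30 dyn/cm² in WT. Tiparp was -0.19, 0.34 and 0.79 in these 3 comparisons and Arnt -0.24, -0.07 and -0.05, while Ahr was -0.22 and 0.03 in WT. Between genotypes, Tiparp in static cells turned to -0.07 and Arnt at 30 dyn/cm² to -0.17. Library totals moved the median of all genes by up to 0.12 in flow comparisons and to -0.28 between genotypes at 30 dyn/cm². They also moved the share of called genes that were higher to 64.3% from 49.8% (orpk, 2 against static), 65.9% from 51.8% (WT, 2 against static), 34.4% from 50.4% (orpk, 30 against 2), 40.6% from 51% and 38.5% from 51.6% (genotype at 2 and 30), and 42.8% from 53.2% and 38.8% from 53.7% (difference in response at 30 against static and against 2). At 30 dyn/cm² against static in orpk, Tiparp was -0.61 and Arnt -0.69 with RLE and with DESeq2, and -0.59 and -0.67 with the compared groups alone.

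Leaving out 1 library gave Aldh3a1 values of 1.91 to 2.54 in WT at 2 dyn/cm² and 0.35 to 1.17 at 30 dyn/cm². Called list genes lost their call in 73 combinations of gene, comparison and setting. The replicate block moved the genes called to 8082 (orpk, 2 against static) and 4302 (WT, 30 against 2), and no count of genes called moved by over 1.5 times under any alternative. Counts for single lists moved by more in 9 refits, all among chaperones, bHLH-PAS genes and tryptophan enzymes. The causes were not tested. Depth limits Cyp1a1, Ahrr and WT Aldh3a1.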
